A study of Mus musculus with 11 samples.

Results

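A set of 10 genes for the neuromuscular junction and for excitation-contraction coupling of skeletal muscle was followed through the embryonic mouse mandibular arch: the acetylcholine receptor subunits Chrna1, Chrnb1, Chrnd and Chrng, the receptor-clustering genes Musk and Rapsn, the calcium channel subunits Cacna1s and Cacng1, and the calcium release channel and pump genes Ryr1 and Atp2a1. They were taken as all probe sets whose single gene symbol in the array annotation was one of these names. This gave 10 of 18194 genes and 13 of 45101 probe sets, with 3 probe sets for Chrng, 2 for Ryr1 and 1 for each of the other members. The study cut the mandibular arch of ICR mouse embryos into a medial (distal) and a lateral (remaining) piece and hybridised 11 Affymetrix arrays. Medial tissue was measured at embryonic day 9.7 (E9.7, 1 array), E10.5 (3 arrays), E11.5 (2 arrays) and E14.5 (1 array). Lateral tissue was measured at E9.7 (1 array) and E10.5 (3 arrays). The labels name no allele or treatment in any group, and each time point was a pool of RNA from 40 embryos. At E14.5 the labels name the tongue and its anterior part, so this stage also differs in dissection.

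At the neuromuscular junction, acetylcholine released by the motor nerve opens a pentameric receptor in the muscle membrane. The embryonic form of the receptor is built from alpha, beta, gamma and delta subunits, encoded by Chrna1, Chrnb1, Chrng and Chrnd, and an epsilon subunit, encoded by Chrne, replaces gamma as muscle matures. Agrin from the nerve acts through Lrp4 and the kinase Musk, and Rapsn anchors the receptors in clusters under the nerve ending. Excitation-contraction coupling carries the signal inward: Cacna1s, the pore of the L-type calcium channel in the transverse tubule, senses voltage together with auxiliary subunits such as Cacng1, and it opens Ryr1, the calcium release channel of the sarcoplasmic reticulum. Atp2a1, the fast-twitch calcium pump, returns calcium to the store. Muscle of the jaw and tongue forms in this tissue from precursor cells that enter the arch, and myogenic factors such as Myod1 and Myog bind E-boxes, short DNA motifs written CANNTG.

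Promoter sequence from RefSeq (GRCm38.p6, up to 250 bases before the annotated start, 245 for Cacna1s) was matched for 7 of the 10 members. Searched on both strands, CANNTG lay in 6 of these 7 windows and in 66.2% of 32851 promoters. The form CAGCTG, which is part of the CANNTG set and reads the same on both strands, lay in 5 of the 7 windows, those of Chrna1, Chrng, Musk, Cacna1s and Atp2a1, and in 13% of all promoters. A match is a description of the letters and not evidence of a bound site, and the members were chosen with earlier results in view. Below, 3 windows are shown because their genes stand for an earlier and a later pattern in the arrays: Chrna1 and Chrng were higher at E11.5 than at E10.5, whereas Cacna1s was dim on every array but the E14.5 one. Capitals mark every CANNTG, and each sequence runs 5′ to 3′ on the strand of its gene.
Chrna1, chr2:73580339-73580588, minus strand: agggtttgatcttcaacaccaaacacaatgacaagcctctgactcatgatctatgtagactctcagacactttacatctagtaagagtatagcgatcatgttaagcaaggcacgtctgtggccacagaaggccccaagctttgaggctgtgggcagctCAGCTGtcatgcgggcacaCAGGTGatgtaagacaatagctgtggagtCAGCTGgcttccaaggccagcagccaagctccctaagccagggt
Chrng, chr1:87205561-87205810, plus strand: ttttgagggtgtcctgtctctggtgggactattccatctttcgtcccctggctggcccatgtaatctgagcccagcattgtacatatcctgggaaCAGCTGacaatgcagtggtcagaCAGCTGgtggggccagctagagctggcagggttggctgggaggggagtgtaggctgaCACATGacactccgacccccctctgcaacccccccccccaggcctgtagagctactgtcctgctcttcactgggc
Cacna1s, chr1:136052561-136052805, plus strand: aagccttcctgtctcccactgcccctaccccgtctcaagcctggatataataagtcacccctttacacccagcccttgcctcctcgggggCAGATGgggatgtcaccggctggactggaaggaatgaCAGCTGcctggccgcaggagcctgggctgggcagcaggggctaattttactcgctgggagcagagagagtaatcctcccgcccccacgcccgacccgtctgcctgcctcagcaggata
In Chrna1 the CAGCTG copies begin 92 and 44 bases before the start. Chrng has its copies 155 and 132 bases before the start. Cacna1s has 1 copy, which begins 123 bases before the end of the 250-base window that was searched. That window runs past the annotated start of Cacna1s, and the bases beyond the start are not shown. The windows of the earlier genes and of the later gene both hold the motif.

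All values below are log2 signals after quantile normalization of the deposited log2 values, and a difference of 1 is 2-fold. Signals of different probe sets are not comparable as levels, so differences were taken within a probe set. The median deposited value was between 5.20 and 5.73 on 9 arrays but 2.37 on replicate 1 of medial E10.5 and 2.47 on replicate 1 of medial E11.5, a gap that quantile normalization removes. Signals of spiked-in control probe sets divided the 11 arrays into 4 groups, which no label names: the first held the E9.7 arrays of either tissue with replicate 2 of medial E10.5, replicate 1 of lateral E10.5 and replicate 2 of medial E11.5, the second held the arrays of low median, the third held replicate 3 of medial E10.5 with replicates 2 and 3 of lateral E10.5, and the E14.5 array stood alone. As a check of the dissection at E10.5, Hand2, a marker of the distal arch, was between 11.55 and 11.88 on medial arrays and between 10.13 and 10.45 on lateral ones. Nothing in the labels gives separate cultures or litters for the arrays, so p-values measure only the spread between arrays of pooled RNA, which may be technical, and the number of arrays limits the precision. In these bulk samples, fewer cells of a type and less RNA per cell cannot be told apart.

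At E9.7 and E10.5 most members were dim. The level that separated dim from bright probe sets was 4.86, the 50th percentile of all values. On the E9.7 arrays 2 of the 10 members reached it in medial tissue and 2 in lateral tissue, and on the E10.5 arrays between 2 and 4 did in either tissue. On both E11.5 arrays 8 members reached it, and on the E14.5 array all 10 did. Chrnd was the exception among the receptor subunits, since its probe set reached the level on all 11 arrays. At E9.7, with 1 array a side and no test, medial minus lateral differences lay between -0.16 and 0.19 for the 10 members, and none was 2-fold, against 1.76% of 11252 genes. Those genes reached 4.86 on 1 or more of the compared arrays, and only 2 of the 10 members were among them. Neither medial nor lateral tissue had a member 2-fold apart between E10.5 and E9.7, where 0.977% of 11972 genes in medial tissue and 1.34% of 11805 genes in lateral tissue were. By the same requirement, 4 of the 10 members were among the genes considered in each tissue. At shares this low, 0 of 10 does not set the members apart from other genes.

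Medial and lateral tissue at E10.5 were compared with limma over 11968 genes that passed a filter, and 8 of the 10 members were among them. To pass, a gene had to reach 4.86 on 2 or more of the 8 arrays in replicated groups. Chrna1, Chrnb1, Musk and Rapsn passed through the E11.5 arrays alone and were below 4.86 on every E10.5 array. For these genes the comparison is therefore of dim signals. Of the 8 members, 0 were called at an adjusted p under 0.05 and 0 had an unadjusted p under 0.05, against 4.63% and 16.1% of all genes tested. Differences lay between -0.37 and 0.34, so no member was 2-fold apart on average. The neuromuscular junction gene with the widest separation was Chrnd, the delta subunit, at 5.50, 5.08 and 5.60 on medial arrays and 5.62, 5.83 and 5.82 on lateral arrays. It was lower in medial tissue on every array, with a difference of -0.37 ± 0.17 (SE) and an interval from -0.74 to 0.01 (95%, limma adjusted p = 0.329). Array weights in the limma fit made it -0.61, with an adjusted p of 0.00891, in a fit that called 2833 of the 11968 genes against 554 without weights.

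Chrnb1, the beta subunit, was 3.51, 3.678 and 3.67 on medial arrays and 4.09, 3.89 and 3.679 on lateral arrays. The groups did not overlap, though the nearest arrays were almost equal, and the difference of -0.27 ± 0.16 had an adjusted p of 0.467 by limma. Atp2a1, the calcium pump, was 4.92, 4.95 and 4.92 on medial arrays and 5.03, 5.25 and 5.10 on lateral arrays, again without overlap (-0.19 ± 0.18, limma adjusted p = 0.651). Together with Chrnd, these made 3 of the 8 tested members whose arrays did not overlap, all lower in medial tissue, against 25% of all genes tested in either direction and 12.9% in this one. The other 5 tested members, Chrna1, Chrng, Musk, Rapsn and Ryr1, overlapped between the tissues, with limma adjusted p-values from 0.554 to 0.881. A missed threshold does not show equality: the 95% intervals reached from -0.67 to 0.43 for Chrng and from -0.22 to 0.90 for Ryr1. On lateral arrays Chrng (1449532_at) was 4.69 at E9.7 and 4.93, 4.66 and 5.34 at E10.5. Musk was 4.38 at E9.7 and 4.43, 4.35 and 4.17 at E10.5, and Rapsn was 4.43 and then 4.21, 4.73 and 4.69. The lateral E10.5 values of each overlapped its medial ones, which are given with the stages. Ryr1 was 4.88 at E9.7 and 5.0004, 4.60 and 4.62 at E10.5 on 1457347_at in lateral tissue, and 4.29, then 4.07, 3.97 and 3.74, on 1427306_at.

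Cacna1s and Cacng1 failed the filter. Lateral Cacna1s was 3.37 at E9.7 and 3.06, 3.05 and 3.08 at E10.5, and lateral Cacng1 was 3.28 at E9.7 and 3.27, 3.04 and 3.12 at E10.5. Fitted without it, their differences were 0.15 and -0.07, with adjusted p-values of 0.779 and 0.897 by limma.

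**Figure D1:**
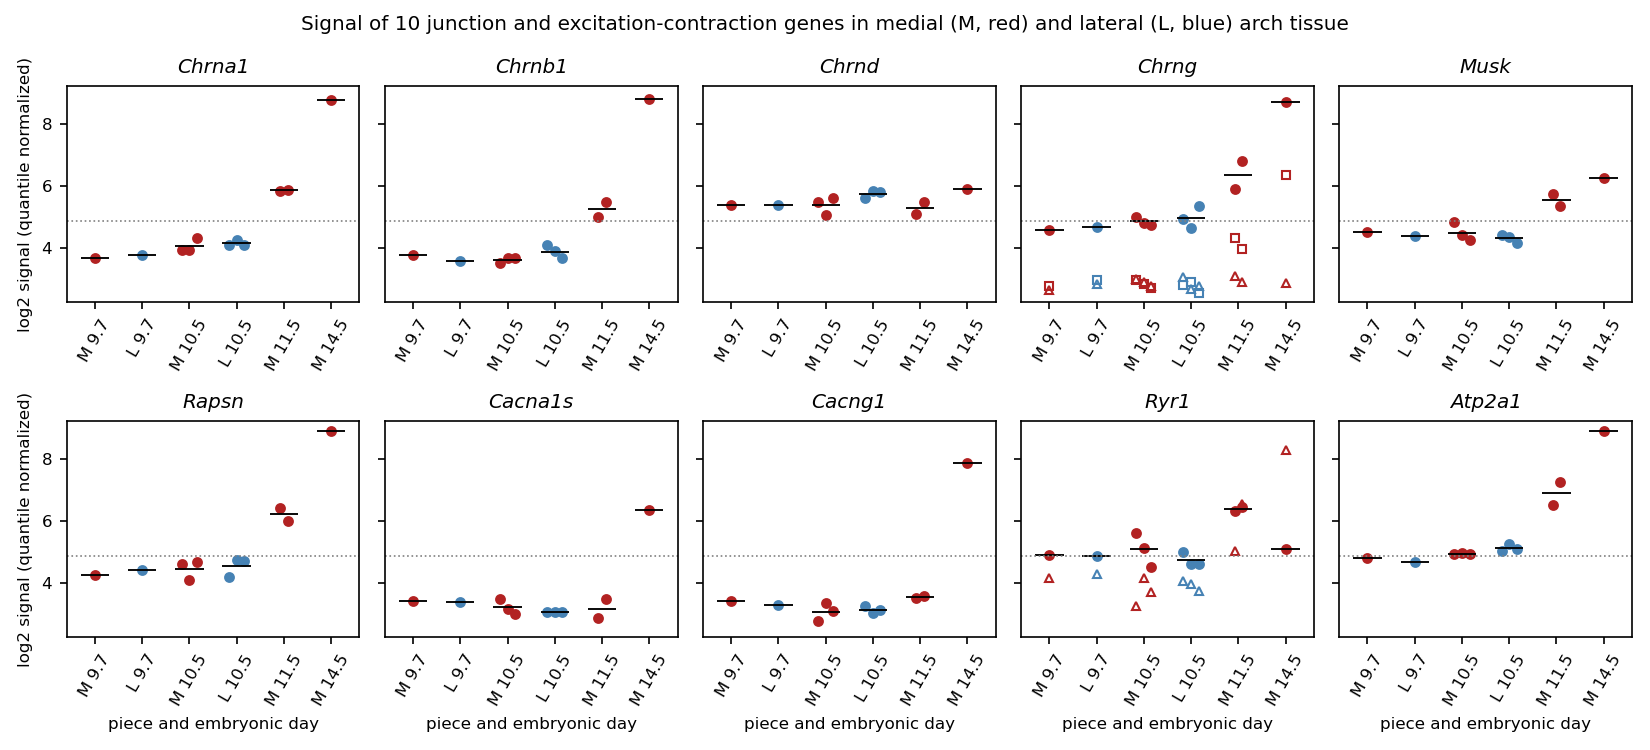
Log2 signal after quantile normalization (vertical axis) on each of the 11 arrays for the 10 members, by tissue (M medial, L lateral) and embryonic day. Filled circles are the probe set that represents the gene, open symbols its other probe sets, bars group means and the dotted line the filter level of 4.86. Among the filled circles the E14.5 array is the highest in most panels, whereas for Ryr1 the E11.5 arrays are. Chrnd stays between 5.08 and 5.91 on all 11 arrays.

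Between E10.5 and E11.5, 7 of the 8 tested members rose in medial tissue and 0 fell (limma adjusted p under 0.05), where 4.32% of all 11968 genes tested rose and 2.6% fell. Chrna1, Chrnb1, Musk and Rapsn passed the filter through the E11.5 arrays alone, so that count depends on the filter. With no filter, 7 of the 10 members were called, all higher, where 2.78% of 18194 genes were. The median difference of the 8 members was 1.56, against 0.00 over all genes tested. This median depends on the filter too, and it leaves out Cacna1s (-0.05) and Cacng1 (0.48). For each of the 7 called members, both E11.5 arrays lay above all 3 E10.5 arrays, as for 14.8% of genes tested. For Chrna1, Chrnb1, Musk and Rapsn, passing the filter through the E11.5 arrays alone fixed this order in advance. On the deposited scale, where the median of all genes moved by -0.58, 0 members were called and Chrna1, for example, differed by 1.07 ± 1.31 (SE, limma adjusted p = 0.882).

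Chrna1, which carries most of the acetylcholine-binding site, was 3.68 at E9.7, 3.95, 3.93 and 4.33 at E10.5, 5.84 and 5.88 at E11.5, and 8.78 at E14.5 in medial tissue. Lateral tissue had 3.79 at E9.7 and 4.11, 4.27 and 4.11 at E10.5, within the medial range of these stages. The E11.5 mean of 5.86 ± 0.03 (SD, n = 2) stood 1.79 ± 0.15 (SE) above the E10.5 mean of 4.07 ± 0.22 (SD, n = 3), with a limma adjusted p of 0.000137. The rise was 1.95 between the arrays of the first control-signal group and 1.89 between those of the second. Chrnb1, the beta subunit, was 3.77 at E9.7, 3.51, 3.68 and 3.67 at E10.5, 5.01 and 5.50 at E11.5, and 8.81 at E14.5. It rose by 1.63 ± 0.18 to E11.5 (limma adjusted p = 0.000531), and by 1.82 and 1.501 within the same groups of arrays.

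Chrng, the gamma subunit of the fetal receptor, has 3 probe sets. On 1449532_at, which represents the gene, the medial values were 4.57 at E9.7, 5.01, 4.82 and 4.74 at E10.5, 5.91 and 6.79 at E11.5, and 8.69 at E14.5. It rose by 1.49 ± 0.27 to E11.5 (limma adjusted p = 0.0108), by 1.97 and 0.89 within the control-signal groups. Leaving out medial E11.5 replicate 2, the higher array, gave 1.05 with an adjusted p of 0.0626. On 1452520_a_at the E11.5 arrays read 4.34 and 3.98, against 2.96, 2.86 and 2.71 at E10.5, and the E14.5 array read 6.34. The shapes of these probe sets were alike over the 11 arrays (r = 0.95, and 0.80 without the E14.5 array, as descriptions). The last one, 1427728_at, was dim on every array, between 2.65 and 3.10, and showed no such step.

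Chrnd, the delta subunit, was the 1 tested member that was not called. Its medial values were 5.38 at E9.7, 5.50, 5.08 and 5.60 at E10.5, 5.09 and 5.49 at E11.5, and 5.91 at E14.5. The E11.5 arrays lay within the E10.5 range, with a difference of -0.10 ± 0.19 and a 95% interval from -0.52 to 0.33 (limma adjusted p = 0.875). Array weights, leaving out medial E10.5 replicate 3, leaving out medial E11.5 replicate 1 and leaving out both low-median arrays each turned its sign, to between 0.0059 and 0.15. RefSeq places Chrnd and Chrng side by side on chromosome 1 with 0 protein-coding genes between them. A single probe set carries Chrnd here, and whether it reports the transcript well was not tested.

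Musk, the receptor tyrosine kinase that starts postsynaptic assembly, was 4.53 at E9.7, 4.83, 4.41 and 4.26 at E10.5, 5.72 and 5.37 at E11.5, and 6.26 at E14.5 in medial tissue. It rose by 1.05 ± 0.19 to E11.5 (limma adjusted p = 0.0110), and by 0.96 and 0.89 within the control-signal groups. Without medial E11.5 replicate 1 the difference was 0.87 and the adjusted p 0.0842. Rapsn, the scaffold that binds the receptor from inside the cell, was 4.27 at E9.7, 4.61, 4.08 and 4.68 at E10.5, 6.42 and 5.998 at E11.5, and 8.88 at E14.5. The E11.5 and E14.5 arrays all lay above the E9.7 and E10.5 ones, and the step to E11.5 was 1.75 ± 0.24 (limma adjusted p = 0.00197). Within the groups of arrays it was 1.91 and 1.81.

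Atp2a1 was 4.80 at E9.7, 4.92, 4.95 and 4.92 at E10.5, 6.51 and 7.26 at E11.5, and 8.90 at E14.5 in medial tissue. Its rise to E11.5 was 1.95 ± 0.20 (limma adjusted p = 0.000377), and it was 2.30 and 1.59 within the control-signal groups. Ryr1 was read by a pair of probe sets. On 1457347_at, which represents the gene by its higher mean, medial values were 4.90 at E9.7, 5.60, 5.13 and 4.52 at E10.5, 6.31 and 6.44 at E11.5, and 5.10 at E14.5. The step to E11.5 was 1.29 ± 0.28 (limma adjusted p = 0.0244). This call was lost in several settings that kept the quantile scale. The limma adjusted p was 0.0662 when only the groups compared were fitted, 0.0602 without medial E10.5 replicate 2, 0.0982 without medial E11.5 replicate 1 and 0.120 without medial E11.5 replicate 2. On 1427306_at the arrays read 5.04 and 6.55 at E11.5 and 3.26, 4.16 and 3.70 at E10.5, a rise of 2.09 ± 0.41 (limma adjusted p = 0.0238 over 24339 probe sets).

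The voltage-sensor genes did not pass the filter at these stages. Cacna1s was 3.40 at E9.7, 3.48, 3.16 and 3.01 at E10.5 and 2.86 and 3.48 at E11.5, so the stages overlapped throughout. Its E11.5 minus E10.5 difference, fitted without the filter, was -0.05 with a 95% interval from -0.49 to 0.40 (limma adjusted p = 0.965). Cacng1 was 3.42 at E9.7, 2.77, 3.34 and 3.11 at E10.5 and 3.52 and 3.58 at E11.5. Both E11.5 arrays lay above the E10.5 arrays, and the unfiltered difference was 0.48 ± 0.17 with an adjusted p of 0.229 by limma. Both genes were dim at these stages, and a dim signal does not show that a gene is off.

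**Figure D2:**
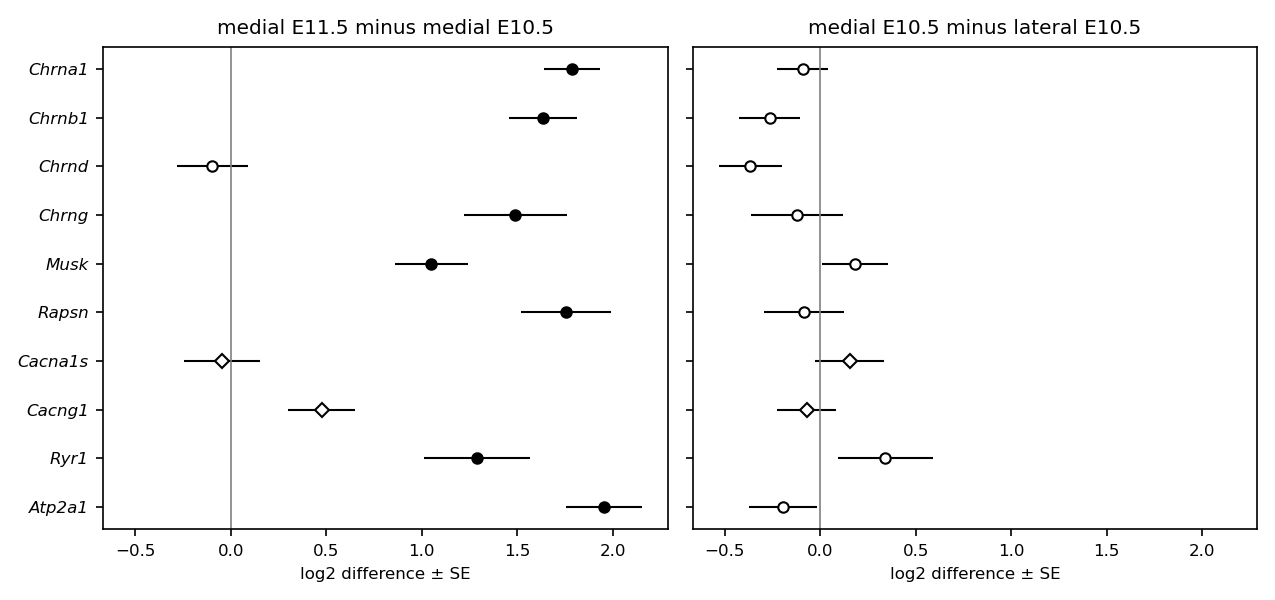
Log2 differences with their standard errors for each member, for E11.5 minus E10.5 in medial tissue (left) and for medial minus lateral tissue at E10.5 (right). Filled points are called at a limma adjusted p under 0.05, open circles were tested and not called, and open diamonds (Cacna1s, Cacng1) come from the fit without the filter; 7 members are called between the stages and 0 between the tissues.

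By E14.5 the voltage-sensor genes had high signals. Cacng1 read 7.86 at E14.5, against 3.52 and 3.58 at E11.5, a difference of 4.31. Cacna1s read 6.34 at E14.5, against 2.86 and 3.48 at E11.5, a difference of 3.17. Their E11.5 signals were below the level of 4.86, so the size of these differences is uncertain. With 1 array at E14.5 there is no test, and the count is of genes whose E14.5 value was 2-fold or more beyond both E11.5 arrays. By this rule 7 of the 10 members were higher and 1, Ryr1 on 1457347_at, was lower, against 11% higher and 3.63% lower of 12566 genes. These 12566 genes reached 4.86 on 1 or more of the compared arrays. Cacna1s and Cacng1 did so on the E14.5 array alone, so they entered the count through the array where they were high. No share of all genes without this requirement is given here. Higher were Cacng1, Chrnb1, Cacna1s, Chrna1, Rapsn, Chrng and Atp2a1. The share of higher genes among those apart depended on the scaling: 1377 of 1833 here, 2090 of 2355 with median centring and 2483 of 2492 as deposited. At least 4-fold beyond, 5 members were higher, against 3.36% of genes. The median difference of the members was 2.51, and of all genes 0.08.

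The E14.5 minus E11.5 differences varied in size. Chrnb1 stood 3.55 above its E11.5 mean, Chrna1 2.92, Rapsn 2.67 and Chrng 2.34, and Atp2a1 stood 2.01 above its own. Musk was 0.71 and Chrnd 0.61 higher at E14.5 than the E11.5 mean, below the 2-fold rule. Atp2a1, whose medial E10.5 mean of 4.93 was above the level of 4.86, was 15.6-fold higher at E14.5 than at E10.5. For the other members counted as higher, the E10.5 mean was below that level, so no fold over E10.5 is given.

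For Ryr1 the probe sets opposed each other at E14.5. On the E14.5 array 1427306_at read 8.26, against 5.04 and 6.55 at E11.5, and 1457347_at read 5.10, against 6.31 and 6.44. The differences were 2.47 and -1.27. Across the 11 arrays the probe sets had an r of 0.40, and over the 10 arrays before E14.5 an r of 0.74, given as descriptions. The mean of the probe sets gave 0.60, and the deposited scale gave 0.21 for 1457347_at, so no direction is given for Ryr1 at this stage. The annotation used here names the same gene for both and does not say which transcript each one reads. The E14.5 array also differed from the others in its dissection and in its control-probe signals, and stage, dissection and array group cannot be told apart.

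**Figure D3:**
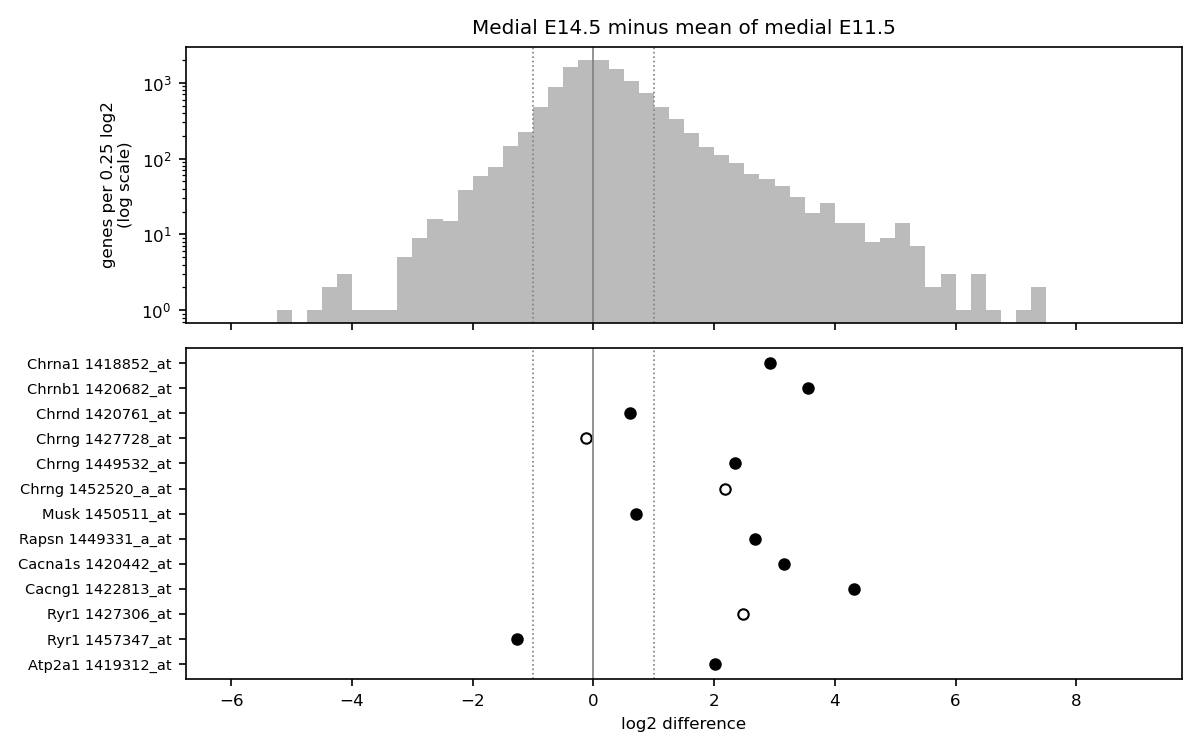
Histogram (log-scaled vertical axis) of the E14.5 minus E11.5 log2 difference in medial tissue for 12566 genes, with the 13 member probe sets marked. Filled marks represent a gene and dotted lines stand at a 2-fold difference; most member marks lie right of the upper line, whereas Ryr1 1457347_at lies left of the lower one.

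Other genes of the pathway were described by counts at E11.5, beside the 4.32% of all genes tested that rose. Of 20 measured receptor and synapse partners, 16 were tested, 2 rose and 0 fell, with a median difference of 0.14: Sntb1, a syntrophin of the postsynaptic scaffold (1.93 ± 0.14), and Erbb3, a neuregulin receptor that Schwann cells also carry (1.78 ± 0.19). Agrn (0.00 ± 0.21), Lrp4 (0.14 ± 0.23) and Dok7, the Musk activator (0.37 ± 0.29), had limma adjusted p-values from 0.609 to 0.996. Chrne, the adult epsilon subunit, was 5.29, 4.80 and 4.83 at E10.5, 5.31 and 4.91 at E11.5 and 4.91 at E14.5, with no higher level at the later stages. Of 26 measured excitation-contraction partners, 20 were tested, 4 rose and 0 fell, with a median of 0.18. These were Sln, a small inhibitor of the calcium pump (2.57 ± 0.40), Cacna2d1, a calcium channel subunit (1.77 ± 0.18), Casq2, a calcium store protein (1.58 ± 0.14), and Stac3, which couples Cacna1s to Ryr1 (1.19 ± 0.14). Sln and Casq2 were below 4.86 on every E10.5 array and passed the filter through the E11.5 arrays alone. Atp2a2, the pump of slow and heart muscle and of most other cells, differed by -0.28 ± 0.17 (limma adjusted p = 0.470).

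At E14.5 the partners counted as 2-fold higher were 3 of 17 considered for the receptor list and 8 of 20 for the excitation-contraction list, with 1 and 0 lower, beside 11% higher and 3.63% lower among all genes considered. Among them were Ache, the enzyme that breaks down acetylcholine (6.33 at E14.5, against 3.05 and 3.09 at E11.5), and Casq1, the skeletal form of the store protein (8.66 at E14.5, against 5.57 and 4.74 at E11.5). Casq2 and Sln were higher by 5.47 and 5.09. Muscle genes at large were called as well. Of the sarcomere list, 17 of 19 tested genes rose at E11.5, with a median of 2.52, and 18 of 20 were 2-fold higher at E14.5, with a median of 4.39. Several of them, Myh3, Myl1, Myl4, Tnnt2, Tnnc2 and Ttn included, were below 4.86 on every E10.5 array. They passed the filter through the E11.5 arrays alone, so the E11.5 count and median depend in part on the filter. Of the myogenic regulators, 8 of 11 rose at E11.5, led by Myog at 5.48 ± 0.23 and Myod1 at 4.13 ± 0.18.

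Markers of other cell types also moved with the stages. The mean signal of 11 neuron and motor nerve genes was between 4.80 and 5.005 at E10.5, between 5.36 and 5.49 at E11.5, and 5.71 at E14.5. Of 5 tested, Nefl and Nefm, neurofilament genes, rose and Gap43, a growth-cone gene, fell at E11.5, and Chat and Slc18a3, which define cholinergic neurons, lay between 3.02 and 4.00 on all 11 arrays. Nefl was below 4.86 on every E10.5 array and passed the filter through the E11.5 arrays alone. Mnx1, a motor neuron gene, was 2.30, 2.52 and 2.55 at E10.5, 3.30 and 3.97 at E11.5 and 4.54 at E14.5, below the level of 4.86 throughout. At E14.5, 3 of 7 genes considered were 2-fold higher than at E11.5, Tubb3 by 2.01, Stmn2 by 2.27 and Elavl4 by 1.32, and Nefm was lower by 2.39. For 6 Schwann cell precursor genes the mean was between 4.42 and 4.61 at E10.5, between 4.99 and 5.12 at E11.5, and 6.37 at E14.5, with 1 of 3 tested, Erbb3, higher at E11.5 and 3 of 5 considered 2-fold higher at E14.5. Sox10, also tested, was 6.08, 5.72 and 6.10 in medial tissue at E10.5, 6.15 and 6.01 at E11.5 and 5.93 at E14.5. The 3 higher genes were Foxd3, Fabp7 and Cdh19. Like Elavl4, they were below 4.86 at E11.5 and were considered only through the E14.5 array. The mean of 8 heart muscle genes was between 3.65 and 3.79 at E10.5, between 4.34 and 4.43 at E11.5, and 5.61 at E14.5. Its only tested gene, Nkx2-5, rose, whereas Nppa, a heart muscle gene, lay between 2.87 and 3.39 on all 11 arrays. Myh6, a heart myosin gene that failed the filter, was 2.69, 3.11 and 2.77 in medial tissue at E10.5. It read 4.29 and 4.54 at E11.5 and 4.95 at E14.5. Tnni3 and Myl7, also on the heart list, were below 4.86 on all 11 arrays. Tnni3 read 4.49 and 4.00 at E11.5 and 3.37 at E14.5, and Myl7 read 4.17 and 4.32, then 4.59. At E14.5, 2 of 5 heart genes considered were 2-fold higher, Myh7, which slow skeletal muscle also expresses, by 4.51 and Myl2 by 3.31. Both were below 4.86 at E11.5 and were considered only through the E14.5 array. The mean of 6 smooth muscle genes was between 5.15 and 5.27 at E10.5, between 6.13 and 6.21 at E11.5, and 7.10 at E14.5, with Acta2, which early skeletal muscle also expresses, the only one of 4 tested to rise. The part of these cells in the members' changes was not tested.

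**Figure D4:**
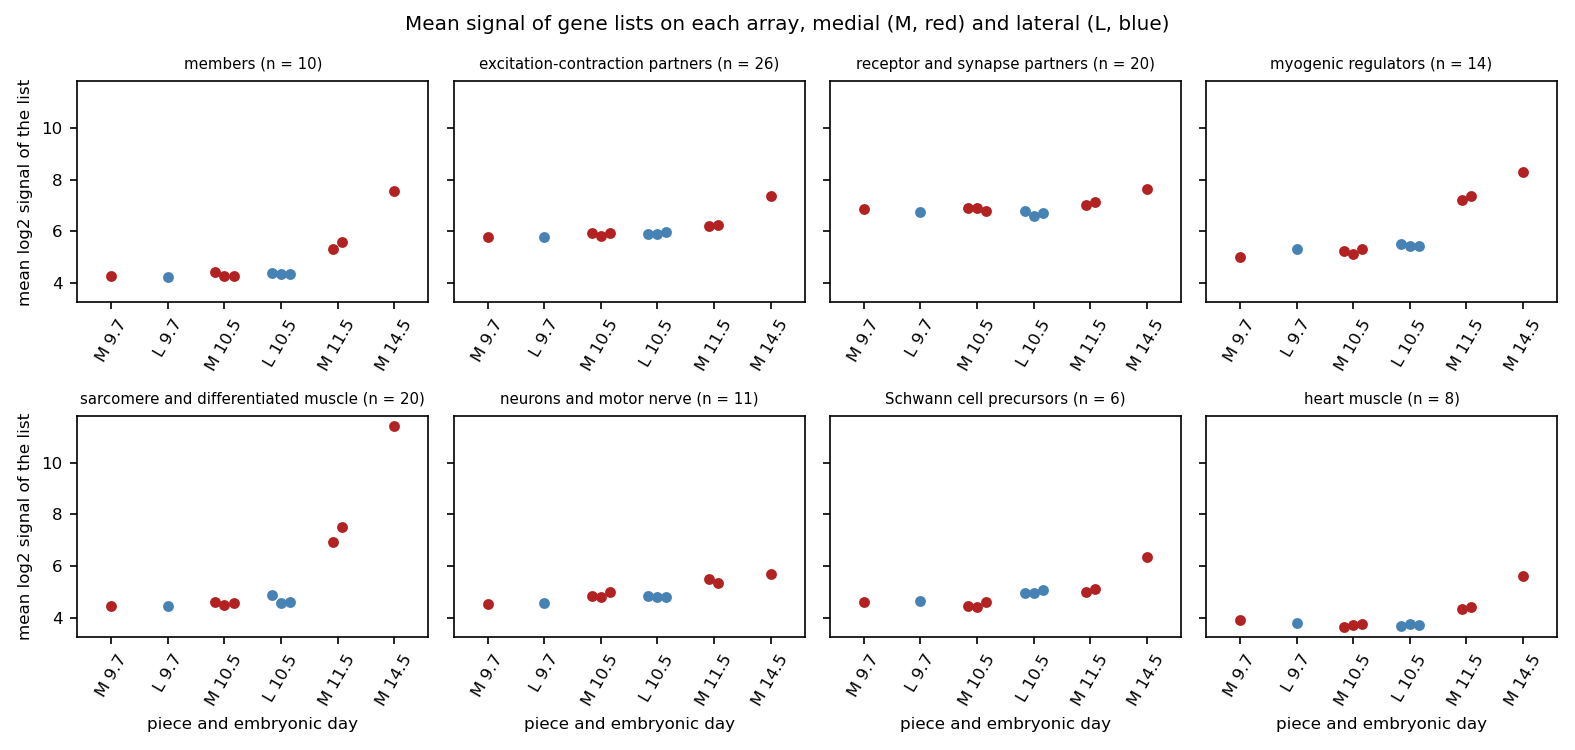
Mean log2 signal (vertical axis) of the 10 members and of 7 other gene lists on each of the 11 arrays, by tissue and embryonic day. The sarcomere list is between 4.50 and 4.61 in medial tissue at E10.5, between 6.93 and 7.50 at E11.5 and at 11.4 at E14.5; levels are to be read within a panel, since lists hold different probe sets.

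The members were not alike in their pattern. Correlated with the mean of the other 9 over the 11 arrays, Chrna1, Chrnb1, Chrng, Rapsn and Atp2a1 had r between 0.97 and 0.99. Musk and Cacng1 had 0.89, Cacna1s 0.84, Ryr1 0.26 and Chrnd 0.24. The Ryr1 value is for 1457347_at, which represents the gene and read 5.10 at E14.5. The other Ryr1 probe set, 1427306_at, read 5.04 and 6.55 at E11.5 and 8.26 at E14.5. Its likeness to the members was not tested. Without the E14.5 array, Ryr1 had 0.86, Cacng1 0.51, Cacna1s -0.03 and Chrnd -0.36, so the match of Cacna1s rests on that array and that of Cacng1 was weaker without it. Outside the members, the genes of 12954 most like their mean profile over 11 arrays were Tnnc1, Acta1, Nfix, Tnnt2, Arpp21, Hjv, Mylk4 and Egr1, at r of 0.99 each. Over the 10 arrays without E14.5 they were Tnnc1, Arpp21, Pde1a, Myl4, Tnnt2, Ablim3, Casq2 and Ttn, at 0.982 to 0.996. These points share their stages and arrays, and the values describe these arrays alone.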

How the data were processed

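The deposited values are log2 signals made with Affymetrix Expression Console 1.1, per the submitters' processing notes; their algorithm is not given in the labels or files, and the log base was inferred from their range of 0.0887 to 14.5. They were quantile normalized across the 11 arrays. Of the probe sets, 34958 had 1 gene symbol, 932 several and 9211 none here, and 34754 matched RefSeq names by Entrez ID. A gene was its probe set with the highest mean. The filter needed 2 of 8 arrays at the 50th percentile, and limma 3.58.1 in R 4.3.3 fitted 6 group means, with Benjamini-Hochberg adjustment. Comparisons without a test considered genes with 1 or more compared arrays at that percentile. Simulated data with known changes were used to test the procedure.

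The members and lists were chosen with earlier results of these data known. The text could name all members, up to 4 genes per list by smallest adjusted p (untested: largest difference), called list genes, and the 8 most alike genes. Hand2, Agrn, Lrp4, Dok7, Chrne, Atp2a2, Ache, Chat, Slc18a3, Mnx1, Nppa, Myh6, Tnni3 and Myl7 were named after their values were seen. Groups of arrays came from clustering 45 spiked-in control probe sets. Alternatives covered scaling, filters, probe set summary, variance models, weights, replicate block, control-signal group, thresholds and leaving out arrays.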

Additional observations from a re-analysis of the deposited data

Results flagged for a closer look

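Contrasts that pointed opposite ways between stages or tissues were found for Chrnb1 and Atp2a1. The medial minus lateral difference of Chrnb1 was -0.27 at E10.5, where every medial array lay below every lateral one, and 0.19 at E9.7, with 1 array a side, so the stages differed by -0.46. The same arrays give -0.14 for E10.5 minus E9.7 in medial tissue and 0.31 in lateral tissue, also -0.46 apart. For Atp2a1 the medial minus lateral difference was -0.19 at E10.5 and 0.11 at E9.7, which differ by -0.31. The difference between the contrasts was not tested.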

How the results depend on the processing

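The number of members called changed by over 1.5 times in these settings. Medial against lateral at E10.5 gave 1 with array weights (Chrnd) and 0 otherwise, with 0 to 0 leaving out arrays. E11.5 against E10.5 gave 7, but 0 on the deposited values and 4 at an adjusted p under 0.01, with 5 to 7 leaving out arrays. E14.5 against E11.5 gave 8 apart (5 at 4-fold), and 8 to 8 leaving out E11.5 arrays. The replicate block gave 0 members at E10.5 and 7 at E11.5, and replicate numbers were not taken to pair the arrays. Deviations of same-numbered medial and lateral arrays correlated at 0.13, -0.29 and 0.48, and medial E10.5 replicate 2 correlated best with lateral replicate 1. Same-numbered medial E11.5 and E10.5 arrays, only 2 pairs, correlated at 0.59 and 0.39, above the other-numbered pairs (-0.59 to 0.36). The deviations of 2 arrays from their mean mirror each other, so these values are not independent. The same-numbered pairs also shared a control-signal group, so the values cannot decide on pairing. All genes called went from 554 (E10.5) and 828 (E11.5) to 2 and 1 as deposited, 358 and 455 centred, 1254 and 2182 with control-signal group, and 2833 with array weights at E10.5. Fitting only the groups compared gave 482 at E11.5, an adjusted p under 0.01 gave 300.0 and 419, and leaving out arrays gave 308 to 528 at E10.5.

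Signs turned for uncalled differences of the tested comparisons and for Ryr1 at E14.5, which the untested count held as 2-fold lower. At E10.5 Chrna1 was 0.000821 and Musk -0.00241 with control-signal group, Chrng spanned -0.279 to 0.0615 and Rapsn -0.254 to 0.102 leaving out arrays, and on deposited values Musk -0.97 and Ryr1 -0.83. For E11.5 against E10.5 Chrnd was 0.10 with array weights, 0.15 without both arrays of low signal, and -0.296 to 0.102 leaving out arrays. At E14.5 Ryr1 was 0.21 as deposited and 0.60 as a probe set mean. The cause was not tested. Deposited values moved the median of all genes by -0.998 at E10.5, -0.58 at E11.5 and 1.51 at E14.5; centring moved it by 0.13 and 0.16 at E10.5 and E14.5. Higher among genes 2-fold apart from E9.7 were 75 of 117 in medial tissue (0 of 57 as deposited, 55 of 131 centred) and 112 of 158 in lateral tissue (180 of 213, 63 of 140). Dim signals limit Cacna1s and Cacng1 before E14.5.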
